A study of Mus musculus with 2 samples.

Results

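Immediate early genes are switched on within minutes of a stimulus, without new protein synthesis, and the dissection and warming of a tissue are among the stimuli known to induce them. The 10 described here are Fos, Fosb, Jun, Junb, Egr1, Atf3, Ier2, Dusp1, Zfp36 and Nr4a1, chosen by name on the array. Each had 1 probe, so they are 10 of 39429 probes and 10 of the 21097 genes tested. The study compared ureters of male mouse embryos of the NMRI stock at E13.5 on 2 two-colour arrays, each holding 1 Tbx2-GOF and 1 control extract with the dyes swapped between arrays. Tbx2-GOF embryos were Tbx18(cre/+);Hprt(Tbx2/Y), in which cre made from 1 Tbx18 allele acts on a Tbx2 allele placed at Hprt; Tbx18 marks the mesenchyme of the ureter. Control embryos were Tbx18(+/+);Hprt(Tbx2/Y): they carried the same Tbx2 allele but no cre. The genotypes thus also differ in 1 Tbx18 allele, and this cannot be told apart from the gain of Tbx2. Pooling of embryos is not stated, nor is it stated that the arrays hold different embryos, so a p-value here reflects how far 2 arrays differ, and that difference may be technical.

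FOS and JUN proteins pair through leucine zippers to form AP-1, a transcription factor that binds DNA as a dimer. Their genes are typically induced when ERK, JNK, p38 or cyclic AMP signalling acts on factors already bound at the promoter, such as SRF, the ternary complex factors and CREB. EGR1 and NR4A1 are a zinc finger factor and an orphan nuclear receptor made in the same first wave. DUSP1, which dephosphorylates MAP kinases, and ZFP36, which speeds the decay of mRNAs with AU-rich elements, help to end the response.

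Neither the rule nor the arrays used the promoters. These were searched for letter patterns, first the core of a cyclic AMP response site. The core TGACG, which begins a CREB site, was sought on both strands of RefSeq promoters of GRCm38.p6, from 250 bases before to 50 after the start. It occurred in 6 of the 8 members with a sequence there (Fos, Fosb, Junb, Atf3, Dusp1 and Nr4a1, but not Jun or Zfp36), against 20.8% of 32851 promoters. The core was also in 26 of the 50 genes with a promoter sequence on the related early gene lists described below, so it is not particular to the members. The full site TGACGTCA, which overlaps the core on both strands, occurred in Dusp1 alone of the 8 members. It was in 6 of those 50 genes and in 1.79% of all promoters. The stretches below lie wholly before the start and are shown because they hold these cores, whose letters are in capitals.
Fos, chr12:85473780-85473839, plus strand: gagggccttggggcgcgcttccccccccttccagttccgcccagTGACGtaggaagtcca
Fosb, chr7:19310076-19310135, minus strand: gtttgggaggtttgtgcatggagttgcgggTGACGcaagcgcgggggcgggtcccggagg
Junb, chr8:84978824-84978883, minus strand: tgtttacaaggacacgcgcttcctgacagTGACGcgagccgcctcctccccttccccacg
Atf3, chr1:191183334-191183393, minus strand: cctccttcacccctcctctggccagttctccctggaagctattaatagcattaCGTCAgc
Dusp1, chr17:26508593-26508672, minus strand: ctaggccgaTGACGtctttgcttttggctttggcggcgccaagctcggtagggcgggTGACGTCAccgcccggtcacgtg
Nr4a1, chr15:101266761-101266820, plus strand: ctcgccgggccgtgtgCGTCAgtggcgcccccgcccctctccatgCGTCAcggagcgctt

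In Nr4a1 the core occurred 4 times in the window, with its letters starting at -233, -213, -69 and -40 from the start. Fos had it at -129 and -66. The AP-1 site TGANTCA was in 0 of the 8 windows (7.81% of all promoters), and the T-box core TCACACC, searched because TBX2 binds such letters, was also in 0 of 8 (3.98%). The TATA letters TATAAA were in Fos and Junb (13.6% of all promoters). They began at -33 in Fos but at base 1, not before the start, in Junb. A CArG box, the letters SRF reads, was found in Zfp36 alone of the 8 windows (1.63% of all promoters). Egr1 and Ier2 had no promoter sequence to search. Bases outside the windows were not searched either, so a CArG box farther from the start of any member would have been missed. The matches given here are of letters, not measured binding.

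A second letter pattern was found in the probes. The nonamer TTATTTATT, the AU-rich letters that ZFP36 itself recognises in mRNA, was in the Dusp1 and Zfp36 probes, 2 of 10, against 0.175% of all 39429 probes. The 30 bases around it are shown for both, with the nonamer in capitals.
Dusp1, bases 11 to 40 of the probe: gtttttacctTTATTTATTtttgtgtaggt
Zfp36, bases 2 to 31 of the probe: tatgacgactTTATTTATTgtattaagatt

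None of the 10 genes differed between Tbx2-GOF and control ureters at limma's adjusted p of 0.05 over all genes, where 0.640% of the 21097 genes passed (135 genes; 76, or 0.360%, higher and 59, or 0.280%, lower). A change of at least 1.5-fold on both arrays was also seen in 0 of the 10, upward (0.825% of all genes) or downward (0.545%). All 10 probes were well above background in both genotypes on both arrays, and none was saturated. The mean log2 ratios of Tbx2-GOF over control ranged from -0.59 for Fosb to 0.31 for Junb. Their median was 0.15 over the 10 genes (0.12 on array 1 and 0.05 on array 2). Over all genes the median was 0.00 and the upper quartile 0.10. At an unadjusted p under 0.05 there was 1 member, Fosb, against 9.34% of all genes. Higher in Tbx2-GOF on both arrays were 5 members (26.1% of all genes), although Dusp1, 1 of these, was at 0.00 on array 2. Fosb was lower on both arrays (25.1%), and 4 had opposite signs (48.8%). In bulk tissue fewer cells of a type and less RNA per cell cannot be told apart.

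**Figure D1:**
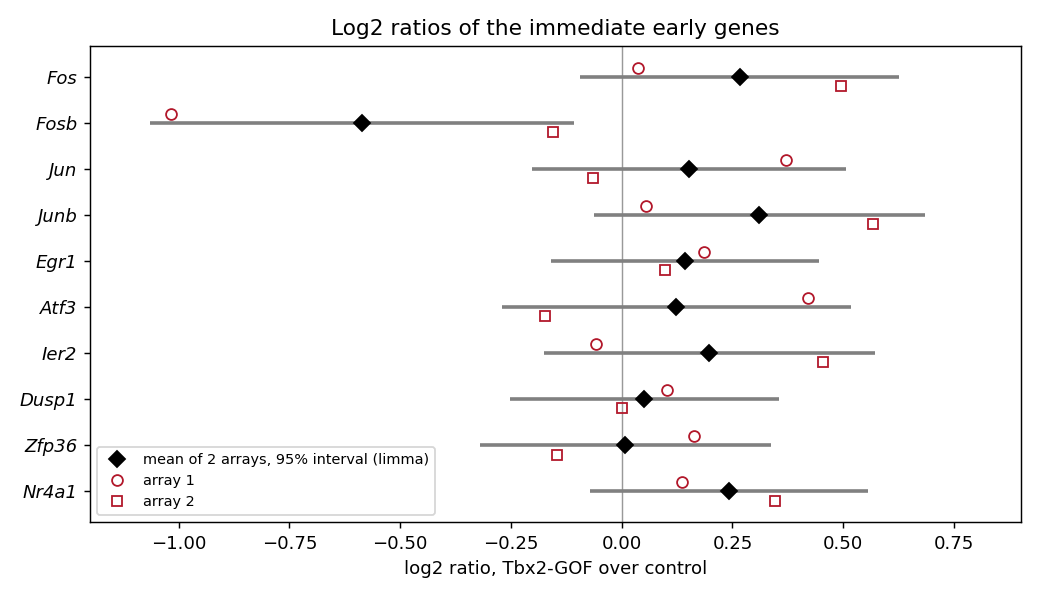
Log2 ratio of Tbx2-GOF over control (horizontal axis) for each of the 10 genes, with array 1 as circles, array 2 as squares, the mean as a diamond and limma's 95% interval as a bar. Only the interval of Fosb, from -1.06 to -0.11, lies wholly on 1 side of 0, without adjustment for the number of genes.

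Of the AP-1 subunits, Fosb, which encodes a FOS family partner of JUN proteins, had the widest difference of the 10. Its normalized log2 intensities were 7.97 and 7.80 in Tbx2-GOF ureters on arrays 1 and 2, against 8.99 and 7.95 in control ureters. The control extract of array 1 stood high, while the other control extract lay between the Tbx2-GOF values, so the genotypes overlapped. The log2 ratio was -1.02 on array 1 (0.49-fold) and -0.16 on array 2 (0.90-fold), a mean of -0.59 ± 0.61 (SD, n = 2; limma's adjusted p = 0.356, unadjusted p = 0.0227). The probe lies on mm9 chromosome 7, 19888168 to 19888227, and was dim. Its scanned signals were 301 and 197 in Tbx2-GOF ureters and 435 and 288 in control ureters, over local backgrounds of 26 to 107.5. Fosb was lower in Tbx2-GOF under each of the 10 alternative settings that used both arrays, with means from -0.73 to -0.53. Some of these settings leave the ratio of a gene with 1 probe unchanged by construction.

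Fos, the founding member of the family, was measured by 10 spots of 1 probe on each array (mm9 chromosome 12, 86817900 to 86817959). It stood at 9.88 and 9.52 in Tbx2-GOF ureters, against 9.84 and 9.02 in control ureters, on the log2 intensity scale. The control extract of array 2 was the lowest of the 4, and the genotypes overlapped. On array 1 the 10 spots gave log2 ratios from -0.08 to 0.12, 7 of them above 0. On array 2 they ran from 0.33 to 0.55, all 10 above 0. The spots of an array thus differed by an SD of 0.06 on each array, whereas the 2 arrays differed by 0.46, and the mean ratio was 0.27 ± 0.32 (SD, n = 2; limma's adjusted p = 0.765). Over the 316 probes above background that were printed 10 times, the median SD between spots was also 0.06 on both arrays.

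Junb, whose protein often restrains JUN, was the member farthest up. Its log2 intensities were 7.58 and 7.83 in Tbx2-GOF ureters, against 7.53 and 7.27 in control ureters. Both Tbx2-GOF values lay above both control values, by a narrow margin on array 1. The ratio was 0.05 on array 1 and 0.57 on array 2, a mean of 0.31 ± 0.36 (SD, n = 2; limma's adjusted p = 0.677). This probe (mm9 chromosome 8, 87501881 to 87501940) was dim, with scanned signals of 224 and 199 in Tbx2-GOF ureters and 144 and 189 in control ureters over local backgrounds of 27 to 91. With the scanner software's processed signals its mean ratio was 0.51, short of the threshold.

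Jun encodes the subunit phosphorylated by JNK. Tbx2-GOF ureters had 12.44 and 12.30, against 12.07 and 12.37 in control ureters, on the log2 intensity scale. The control extracts were both the lowest and the second highest of the 4. The log2 ratios were 0.37 and -0.07, with a mean of 0.15 ± 0.31 (SD, n = 2; limma's adjusted p = 0.963; mm9 chromosome 4, 94716928 to 94716987). Limma's 95% interval for the mean, -0.20 to 0.51, allows 0.87-fold to 1.42-fold. The sign on array 2 turned with the processing: it was 0.04 with processed signals or the series value table and 0.01 with median centring.

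**Figure D2:**
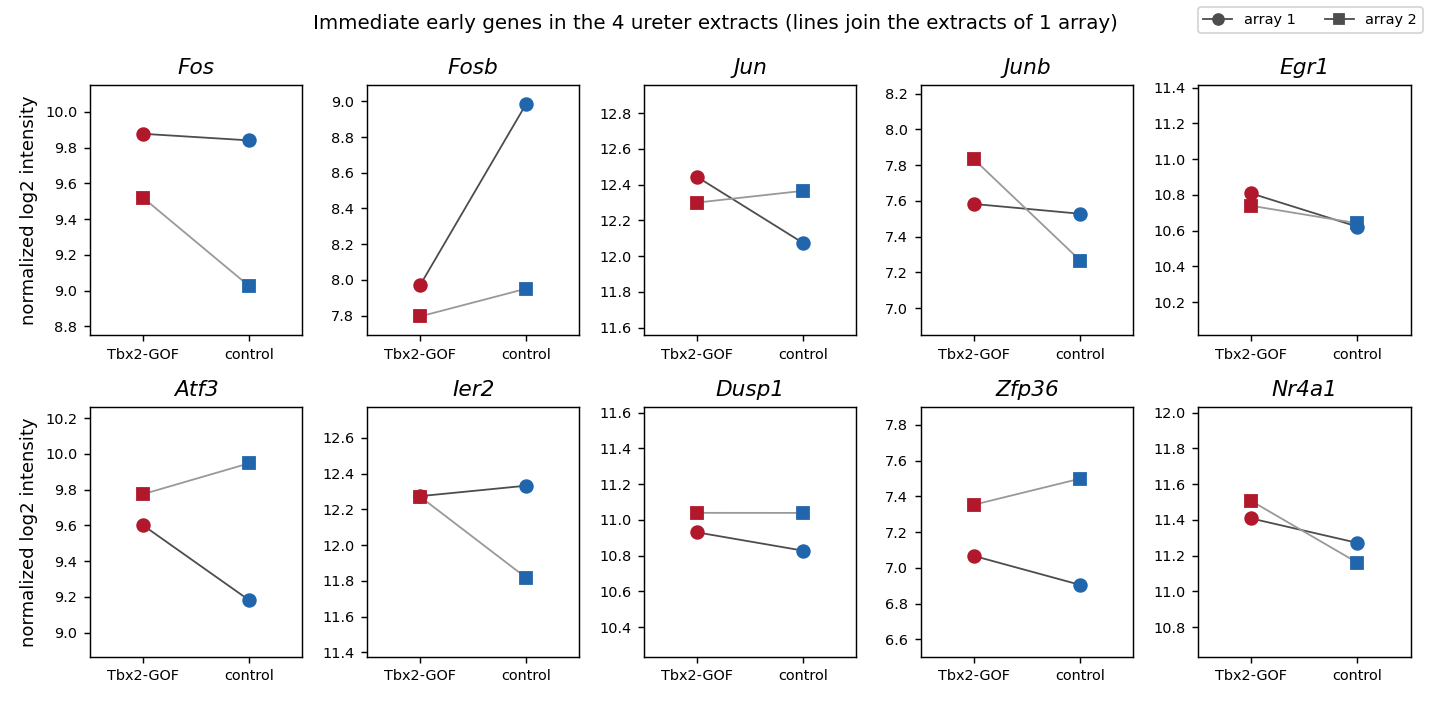
Normalized log2 intensity (vertical axis, the same width of 1.4 in each panel) of the 10 genes in Tbx2-GOF (red) and control (blue) extracts, with lines joining the extracts hybridised to 1 array. In Fosb the control extract of array 1 is at 8.99 and the other 3 extracts lie between 7.80 and 7.97.

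ATF3, a stress-induced bZIP factor that dimerises with JUN proteins, is a usual marker of injury. Atf3 was at 9.60 and 9.77 in Tbx2-GOF ureters, against 9.18 and 9.95 in control ureters, on the log2 intensity scale. The control extracts enclosed the Tbx2-GOF extracts. The log2 ratio was 0.42 on array 1 and -0.17 on array 2, a mean of 0.12 ± 0.42 (SD, n = 2; limma's adjusted p = 1.00; mm9 chromosome 1, 192994547 to 192994606).

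Egr1 and Nr4a1, which encode transcription factors outside AP-1, were each higher on both arrays. For Egr1 the log2 intensities were 10.81 and 10.74 in Tbx2-GOF ureters, against 10.62 and 10.64 in control ureters (mm9 chromosome 18, 35024395 to 35024454). The genotypes did not overlap, yet the gap was small, with ratios of 0.19 and 0.10 and a mean of 0.14 ± 0.06 (SD, n = 2; limma's adjusted p = 0.943). Nr4a1 was at 11.41 and 11.51 in Tbx2-GOF ureters, against 11.27 and 11.16 in control ureters (mm9 chromosome 15, 101105071 to 101105130). It too did not overlap, with ratios of 0.14 and 0.35 and a mean of 0.24 ± 0.15 (SD, n = 2; limma's adjusted p = 0.734). With Junb, these made 3 of 10 members with both Tbx2-GOF extracts above both control extracts, where 18.2% of all genes did so. No member had both below, where 16.3% of all genes did.

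Ier2, which encodes a short-lived nuclear protein induced by growth factors, had 12.27 in both Tbx2-GOF extracts, against 12.33 and 11.82 in control ureters. Only the control extract of array 2 stood apart, on the low side, and the genotypes overlapped. Its ratios were -0.06 and 0.45, a mean of 0.20 ± 0.36 (SD, n = 2; limma's adjusted p = 0.913; mm9 chromosome 8, 87186214 to 87186273).

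The feedback genes had the means closest to 0 of the 10. Dusp1 was at 10.93 and 11.04 in Tbx2-GOF ureters, against 10.83 and 11.04 in control ureters, and its ratios were 0.10 and 0.00, a mean of 0.05 ± 0.07 (SD, n = 2). The genotypes met at the top of this range. Its 95% interval, -0.25 to 0.35, allows 0.84-fold to 1.28-fold (limma's adjusted p = 1.00). The file places this probe on mm9 chromosome 17, 26642526 to 26642536, which covers only 11 of its 60 bases. Zfp36 was at 7.07 and 7.35 in Tbx2-GOF ureters, against 6.90 and 7.50 in control ureters, so the control extracts enclosed the others (mm9 chromosome 7, 29161940 to 29161999). Its ratios were 0.16 and -0.15, a mean of 0.01 ± 0.22 (SD, n = 2; limma's adjusted p = 1.00). Whether these probes lie in coding sequence or in a UTR was not looked up, since no mm9 annotation was used here.

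The 2 arrays disagreed over these genes more than over most. The absolute difference between the log2 ratios of the arrays had a median of 0.45 over the 10 members and 0.20 over all genes. Beyond the upper quartile of all genes, 0.35, lay 6 of the 10, namely Fosb (0.86), Atf3 (0.59), Ier2 (0.51), Junb (0.51), Fos (0.46) and Jun (0.44), where 25.0% of all genes lie by definition. Fos, Fosb, Junb, Ier2 and Nr4a1 had the higher ratio on array 2, whereas Jun, Atf3, Zfp36, Egr1 and Dusp1 had it on array 1. On array 1 Fos, Jun, Junb and Atf3 were above 0 and Fosb below. On array 2 Fos and Junb were above 0 and Fosb, Jun and Atf3 below.

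**Figure D3:**
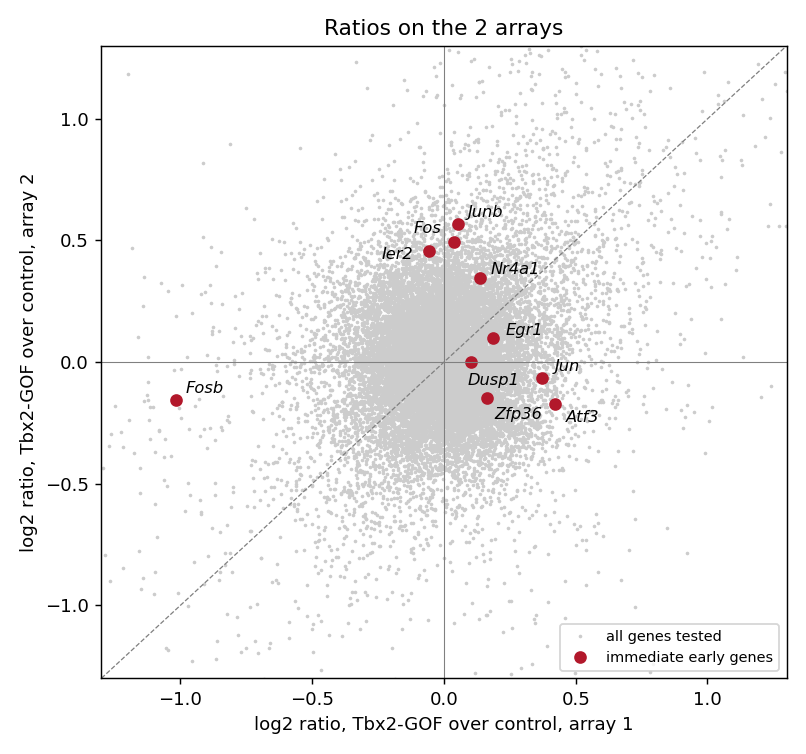
Log2 ratio of Tbx2-GOF over control on array 2 (vertical) against array 1 (horizontal) for all genes tested (grey) and the 10 immediate early genes (red), with a dashed line of equality. Fosb lies far left, Junb, Fos and Ier2 high near the vertical axis and Atf3 and Jun to the right below 0; 238 genes fall outside the axes, which end at 1.3.

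The scanner software attaches an error to each log ratio, which covers the spot and not the embryos. In units of that error, Fosb was at -5.02 on array 1 and -1.21 on array 2, and Junb at 0.13 and 3.86. The gap between the arrays was 2.84 times its combined error for Fosb and 2.69 times for Junb. For the other 8 members it was between 0.26 and 1.66 times. The 1.54 times of Fos used the mean error of its 10 single spots, not an error of their mean, so it is not comparable with the others. The share of all genes with gaps this large in these units was not computed, so the values do not set the members apart.

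The spread lay more in the control extracts. In 9 of the 10 members the control extracts were farther apart than the Tbx2-GOF extracts, where this held for 69.3% of all genes; Egr1 was the exception. The median distance between the extracts was 0.16 in Tbx2-GOF and 0.40 in control ureters over the members, and 0.10 in Tbx2-GOF and 0.19 in control ureters over all genes, on the log2 intensity scale. The control extract of array 2 was the lowest of the 4 for Fos, Junb, Ier2 and Nr4a1 and the highest for Atf3 and Zfp36. Extracts of 1 genotype differ in array and in dye, and these cannot be told apart in single-channel values.

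Of the 94 genes tested on 6 lists of related genes 1 was called, Klf4, which is 1.06%, beside 0.640% of all genes. In the list of other AP-1, ATF and MAF subunits 0 of 14 passed, and the median log2 ratio was 0.02. Maff was at 0.21 and Mafk, another small MAF protein gene, at 0.18, while Batf was at -0.48 and Jdp2, which encodes a repressor of AP-1 targets, at -0.50 (adjusted p = 0.223). Jdp2 and Batf were lower on both arrays. Fosl1 and Batf2 were not tested, since neither genotype was well above background on both arrays.

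Among other early transcription regulators 1 of 16 fell and 0 rose. Klf4, a zinc finger factor that is also an immediate early gene, was at -0.996 on array 1 and -1.95 on array 2, a mean of -1.47 ± 0.68 (SD, n = 2; limma's adjusted p = 0.0434). This call was not kept with processed signals, median centring or the series value table, which called 0 genes in all. Its relative Klf6 was at -0.24. The proto-oncogene Myc was highest at 0.41 (adjusted p = 0.315) and Bhlhe40, a circadian repressor gene, next at 0.22. The list median was 0.03. Of the relatives of Egr1 and Nr4a1, Nr4a2 was tested and stood at 0.13, while Egr2, Egr3, Egr4 and Nr4a3 did not pass the filter on dim probes.

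Feedback inhibitors, 20 of 20 tested, had 0 calls and a median of 0.06. Dusp8, a phosphatase of JNK and p38, was at 0.55 and Dusp2, a nuclear MAP kinase phosphatase, at 0.41 (adjusted p = 0.256 and 0.484). Dusp10 was at -0.40 and Zfp36l2, the Zfp36 relative, at -0.25. Secreted and other early products had 0 of 14 past the test and a median of 0.02, between Sik1 at 0.33 and Sgk1 at 0.24 on the high side and Plk2 at -0.38 and Hbegf, an EGF receptor ligand, at -0.30 on the low side.

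Heat shock genes respond to unfolded protein. Of 13 heat shock and chaperone genes 0 passed, with a median of 0.06 and a range from -0.11 to 0.21. Bag3 was at 0.21, the heat shock factor gene Hsf1 at 0.20, the endoplasmic reticulum chaperone gene Hspa5 at -0.11 and Dnajb1 at -0.08. Kinases and factors upstream of early genes had 0 of 17 past the test and a median of 0.08, with Rps6ka1 at 0.25, Map2k1 at 0.21, Elk4 at -0.18 and Mef2a at -0.14. Srf itself was at 0.15. As given above, the core TGACG was in 26 of the 50 genes with a promoter sequence on the AP-1, early regulator, feedback and early product lists, against 20.8% of all promoters.

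**Figure D4:**
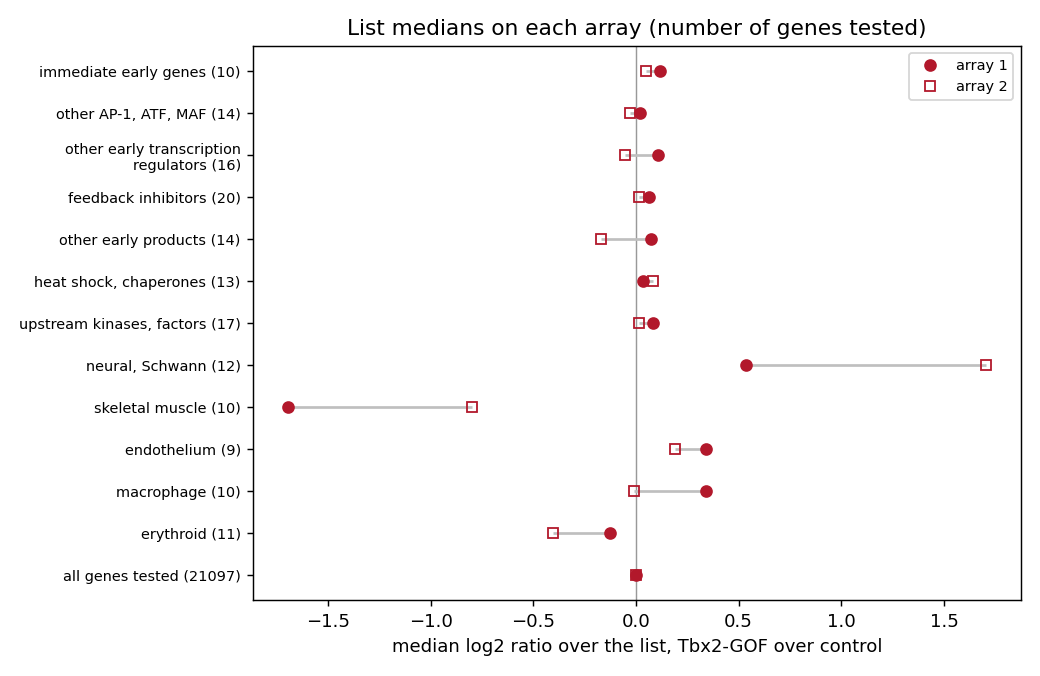
Median log2 ratio of Tbx2-GOF over control (horizontal axis) on array 1 (filled circles) and array 2 (open squares) for the lists shown. The number of genes tested is in brackets. Ureteric mesenchyme, urothelium, nephron and liver lists are not drawn. Of these, nephron (0.71 and 0.54 on arrays 1 and 2) and liver (-0.89 and -1.33) also had medians far from 0. The immediate early genes lie at 0.12 and 0.05, beside 0.00 on both arrays for all genes, whereas neural and skeletal muscle markers lie far to either side.

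On the same arrays, neural and skeletal muscle markers had list medians farther from 0 (1.03 and -1.22) than any early gene list. Of 12 neural and Schwann markers 2 rose, Fabp7 (1.57) and Th (1.34), and 12 were higher on both arrays. Their summed intensity was 115432 and 120936 in Tbx2-GOF ureters, against 74573 and 44600 in control ureters. The list medians were 0.54 on array 1 and 1.70 on array 2. Of 10 skeletal muscle markers 4 fell, Tnnt3, Myh8, Acta1 and Chrna1, and 10 were lower on both arrays; the summed intensity was 21891 and 46707 in Tbx2-GOF ureters, against 61484 and 69526 in control ureters. This list was farther down on array 1 (-1.69 against -0.80). Macrophage markers had 0 of 10 calls and list medians of 0.34 and -0.01 on arrays 1 and 2. Their summed intensities were 45692 and 53990 in Tbx2-GOF ureters, against 37348 and 56971 in control ureters. The part of neural, muscle or macrophage cells in the early gene values was not tested. None of the calls on these lists, or on those that follow, was made with processed signals, median centring or the series value table.

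Other lists had these calls. Six2 (1.85) and Pax8 (0.95) rose among 8 nephron markers (median 0.69), and Afp, Alb, Ahsg, Serpina1a and Ttr fell among 9 liver and plasma protein markers (median -1.11). Endothelial (median 0.29) and erythroid (-0.39) markers had 0 calls of 9 and 11. All 10 markers of ureteric mesenchyme and all 13 of urothelium passed the filter on dim probes, but so did all markers of liver, skeletal muscle, nerve, blood and macrophages, so passing it does not check the labelled tissue. Among the mesenchyme markers (median -0.12) Foxd1 fell (-0.98), while 4 markers were lower and 1 higher on both arrays. Foxd1 is also a marker of kidney stroma, and the arrays do not tell which tissue its RNA came from. Among the urothelium markers (median 0.05) Upk3a fell (-0.86), although its genotypes overlapped, while 3 markers were lower and 5 higher on both arrays. Tbx2 itself was at 0.04 and 0.56 on arrays 1 and 2 (limma's adjusted p = 0.711), and whether its probe lies in the part carried by the Hprt allele was not looked up, so it does not check the labels. Tbx18, from which cre is made, was at -0.31 and -0.59 (limma's adjusted p = 0.266). How the cre allele bears on the Tbx18 probe was not tested.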

How the data were processed

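The submitters' processing notes name Agilent Feature Extraction 10.7.3.1. Per the file headers, the deposited intensity columns are each spot's mean signal, its median local background and a processed signal, the last after background subtraction and dye normalization. Each deposited log10 ratio (red to green) comes with an error from the software; both were turned here to log2 of Tbx2-GOF over control. In the series value table the authors deposited signed fold ratios, with scale, centring and direction unstated; 99.2% and 98.8% of probes above background matched the turned log ratio within 0.01 (log10).

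Here limma 3.58.1 in R 4.3.3 was used: normexp with an offset of 50, loess within arrays (span 0.3; control and flagged spots at weight 0), ratios turned by the labelled dyes. AlexaFluor647 (red) carried Tbx2-GOF on array 1 and control on array 2. Single-channel intensities, taken after loess and Aquantile normalization, are open to dye bias. Kept probes (26471 of 39429) were well above background in at least 1 genotype on both arrays; the brightest probe stood for a gene, named through RefSeq accessions (67.0% of probes matched). lmFit and eBayes tested 21097 genes two-sided with Benjamini-Hochberg adjustment at 0.05, with 6.36 prior degrees of freedom and 1 residual. "Rose" and "fell" mark genes past this threshold. On simulated data the fit recovered changed genes but often made more false calls than the threshold allows. Precision is limited by the 2 arrays.

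The 10 genes and all lists were chosen with earlier results of these data known. Named were the 10 genes, every called list gene, and the 2 highest and 2 lowest means of each early gene list. Srf, Nr4a2, Tbx2, Tbx18 and some genes below the filter were named besides, as were the genes of the closing section, after their values were seen. Alternatives were offset 0, no background correction, processed signals, median centring, scaling between arrays, no filter on dim probes, the mean of a gene's probes, every probe tested, the series value table, trend and robust estimation, and leaving out each array.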

Additional observations from a re-analysis of the deposited data

How the results depend on the processing

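Under 10 alternative settings with both arrays, the 10 genes gave 100 mean values, of which 0 changed sign and 0 passed limma's adjusted threshold (lowest adjusted p = 0.238, for Fosb). Not all of these values could change sign. Each member has 1 probe, so dropping the filter, averaging probes, testing every probe, and trend and robust estimation left its ratio as it was. The series value table also repeated the means of processed signals, except for Fos. Means moved by over 1.5 times for Junb (0.51 with processed signals and the series value table), Dusp1 (0.03 in the same settings) and Zfp36 (up to 0.09). Signs on single arrays were less stable: Jun was positive on both with processed signals, the value table (0.24 and 0.04) and median centring (0.31 and 0.01), and values near 0 turned negative for Dusp1 (-0.0047 on array 2 with offset 0; -0.0044 on array 1 with processed signals and the value table), Junb (-0.0056 on array 1 without background correction) and Fos (-0.035 on array 1 with median centring). The median over the 10 genes was 0.049 without array 1 and 0.12 without array 2, against 0.15; with both arrays it lay between 0.14 and 0.16. Over all genes there were 0 calls when processed signals, median centring or the authors' value table was used (2064, 1219 and 2060 at an unadjusted p under 0.05), 313 with scaling between arrays, 276 without the filter on dim probes and 211 with the mean of a gene's probes; the cause was not tested. With 1 array left no call could be made, since no residual degree of freedom remains. Zfp36 and Junb, whose signals came nearest to their local background among the 10, are the most limited by it. With 1 residual degree of freedom the moderation of variances is itself poorly determined; on simulated data the share of false calls often exceeded the threshold, so adjusted p-values of called genes may be too small. The reported test is paired by construction, since each ratio sets 1 Tbx2-GOF against 1 control extract on an array.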

Other observations

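Outside the rule for named genes, and picked after their values were seen, 3 further phosphatase genes of the feedback list had positive ratios without passing the test. Dusp4 was at 0.26 and 0.46 on arrays 1 and 2, Dusp5 at 0.09 and 0.44, and Dusp6, an ERK phosphatase, at 0.31 and 0.35 (limma's adjusted p = 0.405, 0.708 and 0.458). Other members of the family differed from these, with Dusp1 at 0.10 and 0.00 and Dusp10 at -0.29 and -0.51.

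Opposite signs on the arrays were found in 25 of the 64 genes tested on the 4 early gene lists (39.1%), beside 48.8% of all genes. Klf2, a flow-induced factor of endothelium, was at 0.27 on array 1 and -0.55 on array 2. Cebpd was at 0.34 and -0.27, Cebpb at 0.29 and -0.19, Gadd45b at 0.51 and -0.03, and Ier5 at -0.29 and 0.40; these 5 were also picked after their values were seen.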
